A study of Mus musculus with 12 samples.

Results

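A set of 9 complement genes was followed through the colon of untreated and colitic mice: C1ra, C1s1, C4b, C2, C3, Cfb, Serping1, Cfi and C5ar1. They were taken by gene symbol, and all 9 of 9 were found among the 54532 genes of the count table. The samples were total RNA of whole colon from 12 libraries, with 4 groups of 3. STING, an adaptor of cytosolic DNA sensing, is encoded by Tmem173, which is floxed in the Tmem173fl/fl mice. Tmem173iΔmye mice carry in addition a CreERT2 recombinase, which tamoxifen activates, in the Lyz2 gene that myeloid cells express. Per the study's methods the mice were on a C57BL/6N background and 6 to 8 weeks old, and both genotypes were given 5 tamoxifen injections. One group of each genotype stayed on plain water (untreated), and the other drank dextran sodium sulfate (DSS, an agent that injures the colon epithelium) for 7 days, which is called colitic here. A whole colon holds many cell types besides the myeloid cells in which Lyz2-driven Cre is active, and nothing in the labels ties a library to a single animal or to a pool.

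Complement is a cascade of plasma and tissue proteins that tags microbes and damaged cells. In the classical pathway C1q binds its target and the proteases C1r and C1s cleave C4 and then C2, whose fragments form an enzyme that splits C3, and in the alternative pathway factor B joins C3 fragments to form a second such enzyme. Split C3 and C5 release small peptides that attract and activate leukocytes through receptors such as C5ar1. Most plasma complement is made in the liver, but fibroblasts, epithelium, endothelium and myeloid cells in tissues such as the gut also transcribe several of the genes.

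Library totals ran from 13823237 to 18718915 counts. Levels are given as CPM (counts scaled to library size with edgeR's TMM factors) unless FPKM, which is per gene length, is named. Tmem173 itself was at 14.3 to 24.5 CPM in untreated Tmem173fl/fl, 14.6 to 21.3 in untreated Tmem173iΔmye, 37.6 to 44.0 in colitic Tmem173fl/fl and 23.8 to 47.8 CPM in colitic Tmem173iΔmye libraries, so the groups of different genotype overlapped (edgeR quasi-likelihood test, adjusted p = 0.602 with DSS and 1 without), and a deletion was not detectable in counts over the whole gene from whole colon. The colitic Tmem173iΔmye libraries were less alike than those of the other groups, with mean correlations to their group of 0.963 to 0.973 against 0.985 to 0.989. Xist, a transcript of female cells, was read in 3 libraries (replicate 3 of each untreated group, and replicate 5 among the colitic Tmem173iΔmye libraries) and was near 0 in the others. Calls among the 9 genes that change without the Xist libraries are given both ways.

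Windows upstream of a RefSeq start were at hand for 4 of the 9 genes, and all 4 genes rose in colitic Tmem173fl/fl mice. The windows of C3 and C1s1 are shown because they lay wholly outside their genes. The windows of C1ra and C5ar1 lay for 216 and 202 of their 250 bases inside the genes as the count table bounds them and are not shown. Each run is the 250 bases before the RefSeq start, 5′ to 3′ on the gene's strand, in GRCm38.p6. Capitals mark a match, on either strand, to a C/EBP-type motif (TTGCNNAA).
C3, chr17:57228137-57228386, minus strand: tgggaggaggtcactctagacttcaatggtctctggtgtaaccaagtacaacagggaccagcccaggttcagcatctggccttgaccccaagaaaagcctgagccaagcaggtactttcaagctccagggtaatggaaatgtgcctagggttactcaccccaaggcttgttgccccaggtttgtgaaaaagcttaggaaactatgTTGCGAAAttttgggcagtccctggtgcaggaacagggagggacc
C1s1, chr6:124542360-124542609, minus strand: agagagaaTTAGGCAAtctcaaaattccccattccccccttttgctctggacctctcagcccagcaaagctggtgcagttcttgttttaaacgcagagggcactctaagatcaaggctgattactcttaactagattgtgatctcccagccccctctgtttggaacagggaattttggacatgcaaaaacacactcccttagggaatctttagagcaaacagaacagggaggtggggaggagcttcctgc
The C3 window held a C/EBP-type match from 45 to 38 bases before the start and the C1s1 window held one from 242 to 235 bases before the more upstream of its 2 listed starts. Among 32851 RefSeq windows of the same length, 9.56% held the C/EBP-type letters. The windows of C1ra and C5ar1 did not hold them. Neither of the 2 windows shown held GAAANNGAA (an IRF type motif, in 7.13% of all windows) or GGANTTTCC (an NF-kB type motif, 1.07%). Nor did they hold TTCNNNGAA (a STAT type motif, 7.02%) or TATAAA (12.4%). The C5ar1 window held a match to GAAANNGAA from 66 to 58 bases before its start, and the C1ra window held no match.

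DSS raised 6 of the 9 complement genes in Tmem173fl/fl mice. C3, C5ar1, C4b, Serping1, C1ra and C1s1 were called higher, by 2.73-fold (C1s1) to 8.73-fold (C3). C2, Cfb and Cfi were not called. To be called, a gene needed a log2 fold change of 1 or more in either direction and a p, adjusted by the Benjamini-Hochberg method over 24102 genes, below 0.05 (edgeR quasi-likelihood test). The background was that 14.9% of all genes tested were called higher and 7.61% lower. In the same 6 genes every colitic library lay above every untreated one, which held for 23.9% of all genes. The median log2 fold change of the 9 genes was 2.06, against 0.03 over all genes.

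**Figure D1:**
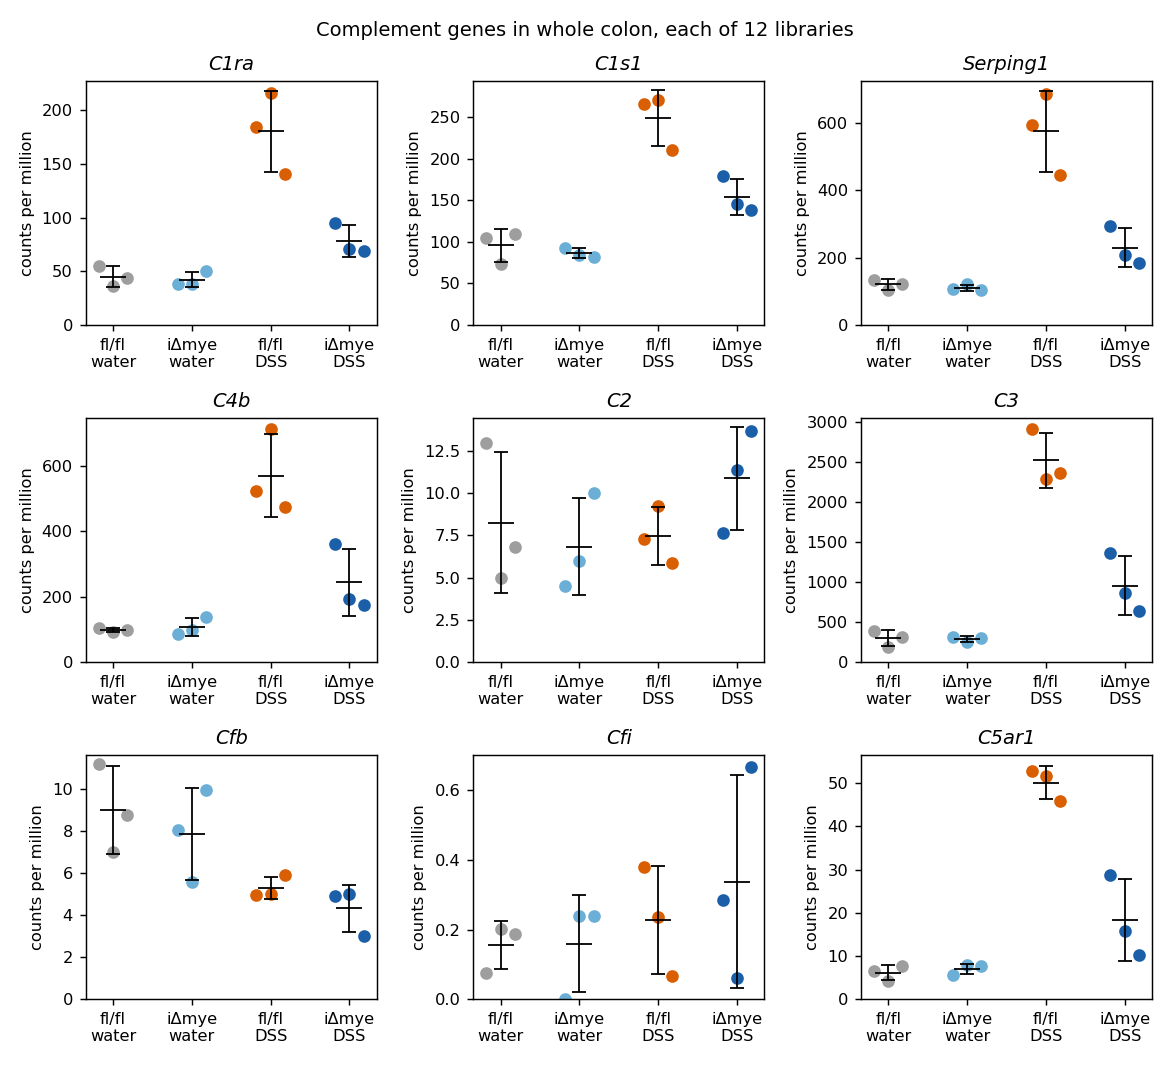
CPM of each complement gene in every library (points), with the mean and SD of 3 libraries (bars), by genotype and treatment. C1ra, C1s1, Serping1, C4b, C3 and C5ar1 were highest in colitic Tmem173fl/fl libraries and intermediate in colitic Tmem173iΔmye libraries, while C2, Cfb and Cfi stayed under 14 CPM throughout.

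The proteases of the C1 complex were described first. C1ra (ENSMUSG00000055172, GRCm38 chr6:124512405-124523443, plus strand) encodes the protease that activates C1s. C1ra was at 55.0, 36.4 and 44.2 CPM in untreated and at 184, 215 and 140 CPM in colitic Tmem173fl/fl libraries. The lowest colitic library was thus above the highest untreated one. The log2 fold change was 2.06 ± 0.21 (SE, edgeR adjusted p = 5.08e-05). C1s1 (ENSMUSG00000038521, chr6:124530345-124542359, minus strand), the next gene on the chromosome, encodes the protease that cleaves C4 and C2. It was at 105, 72.9 and 109 CPM in untreated and 266, 271 and 210 CPM in colitic Tmem173fl/fl libraries. The rise in C1s1 was the smallest of the 6, at 1.45 ± 0.19 (SE, edgeR adjusted p = 0.000292).

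C4b (ENSMUSG00000073418, chr17:34728380-34743882, minus strand), one of the pair of mouse C4 genes, supplies the fragment that anchors the classical C3-splitting enzyme. It was at 105, 91.3 and 98.8 CPM in untreated and 524, 714 and 474 CPM in colitic Tmem173fl/fl libraries, a log2 fold change of 2.61 ± 0.19 (SE, edgeR adjusted p = 7.51e-06). C3 (ENSMUSG00000024164, chr17:57203970-57228136, minus strand), on which all the pathways converge, had the highest level and the largest fold. C3 read 397, 196 and 315 CPM without DSS and 2911, 2286 and 2364 CPM with it. No library of one group came near the other, and the log2 fold change was 3.13 ± 0.26 (SE, edgeR adjusted p = 1.78e-05).

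Serping1 (ENSMUSG00000023224, chr2:84765387-84775444, minus strand) encodes C1 inhibitor, which inactivates C1r, C1s and the proteases of the lectin pathway. It was at 135, 103 and 123 CPM in untreated and 592, 684 and 446 CPM in colitic Tmem173fl/fl libraries. The inhibitor thus rose together with its target proteases, by 2.32 ± 0.20 on the log2 scale (SE, edgeR adjusted p = 2.01e-05). C5ar1 (ENSMUSG00000049130, chr7:16246743-16259540, minus strand), the receptor of the C5 peptide on neutrophils and macrophages, was at 6.51, 4.33 and 7.70 CPM in untreated and 52.9, 51.7 and 45.7 CPM in colitic Tmem173fl/fl libraries. Its colitic libraries lay close together and its rise was 3.08 ± 0.22 (SE, edgeR adjusted p = 6.74e-06). All 6 calls held in every alternative tried, including each library left out in turn.

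The remaining 3 genes had low counts. C2 (ENSMUSG00000024371, chr17:34862604-34898265, minus strand), the partner of C4, was at 13.0, 5.01 and 6.82 CPM in untreated and 7.31, 9.23 and 5.85 CPM in colitic Tmem173fl/fl libraries, and the ranges overlapped (log2 fold change -0.07 ± 0.35, SE, edgeR adjusted p = 0.902). Cfb (ENSMUSG00000090231, chr17:34856374-34862518, minus strand), the gene of factor B, was at 11.2, 7.04 and 8.76 CPM in untreated and 4.98, 5.02 and 5.92 CPM in colitic Tmem173fl/fl libraries. All colitic values were below the untreated ones, but the log2 fold change of -0.69 ± 0.24 (SE, edgeR adjusted p = 0.0478) was under the fold threshold. Cfi (ENSMUSG00000058952, chr3:129835884-129875332, plus strand) encodes factor I, the protease that inactivates C3 and C4 fragments. It had 0 to 11 counts in any library, with 3 counts taken as the floor, so no fold is given and a difference was not detectable at this depth.

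The values of Cfb and C2 are limited by how reads were assigned. In GENCODE M21, whose exon lengths equal those in the count table for all 9 genes, a readthrough gene on the same strand, Gm20547, covers 2246 of the 2825 exonic bases of Cfb (79.5%) and 1656 of the 3872 of C2 (42.8%). Gm20547 had 0 counts in all 12 libraries. Whether reads in the shared exons were dropped was not stated, and if they were, the counts of Cfb come from the 579 bases that are its own. The absolute levels of Cfb and C2, and their FPKM, may therefore be too low, and their rank among the 9 genes cannot be read from these counts. Of the others, C1s1 shared 576 exonic bases (18.4%) with the opposite-strand gene Gm16567, which also had 0 counts.

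**Figure D2:**
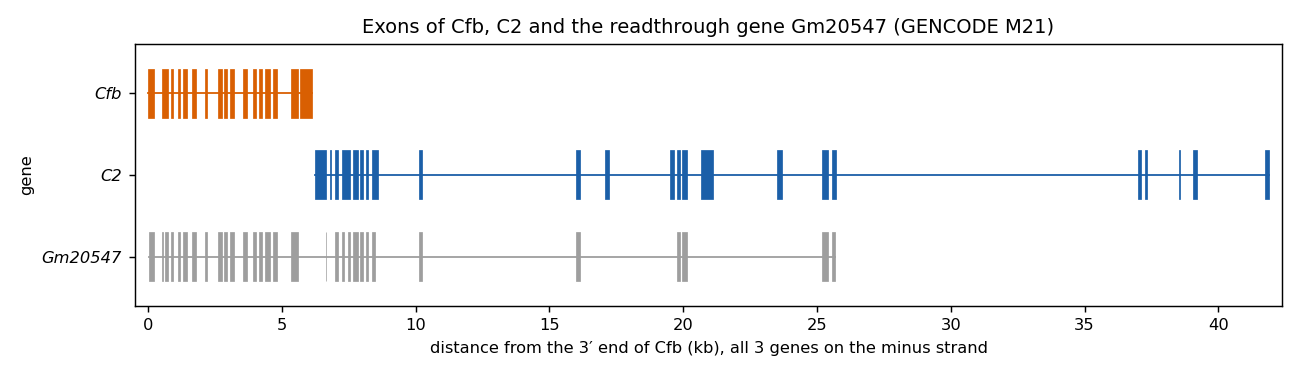
Exons (boxes) of Cfb, C2 and the readthrough gene Gm20547, drawn to scale in kb from the 3′ end of Cfb. Gm20547 shares 79.5% of the exonic bases of Cfb and 42.8% of those of C2.

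Near-identical copies set a second limit. Of the 75-base windows of the C1ra transcript, 42.4% also occur in transcripts of other genes, nearly all in C1rb (40.1%). The figure was 14.7% for C1s1 (all in C1s2) and 23.5% for C4b (all in C4a), and 0% for C3, Serping1, Cfi and C5ar1. How reads with several matches were counted was not stated. The copies themselves were low. C1rb had at most 27 counts and C1s2 at most 51 in any library, and C4a was at 0.98 to 2.65 CPM. C1rb and C1s2 were called higher with DSS in Tmem173fl/fl mice (edgeR adjusted p = 0.0148 and 0.0123), C1rb from 0 to 3 counts to 6 to 27 and C1s2 from 3 to 4 counts to 8 to 51, and no fold is given so near the floor. Both calls were lost without replicate 2 of the colitic group (adjusted p up to 0.0806), and C4a differed by 0.97 ± 0.39 (log2, SE, adjusted p = 0.0758).

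Compared per gene length, C3 and Serping1 had the highest mean levels in every group among the 7 genes other than Cfb and C2. In untreated Tmem173fl/fl colon C3 was at 57.3 ± 19.1 FPKM and Serping1 at 50.5 ± 6.74 FPKM (SD, n = 3), and their ranges overlapped. C1s1 followed at 29.8 ± 6.20, then C4b at 16.8 ± 1.12 and C1ra at 14.8 ± 3.03 FPKM, of which the last pair overlapped. C5ar1 was at 2.35 ± 0.66 FPKM. In colitic Tmem173fl/fl colon the order of the leaders no longer overlapped, with C3 at 496 ± 66.9 and Serping1 at 249 ± 51.0 FPKM, and C4b at 101 ± 22.1 FPKM was now level with C1s1 at 80.4 ± 10.6, their ranges touching at 84.5 to 126 and 68.2 to 87.2 FPKM. C1ra was at 61.1 ± 12.5 and C5ar1 at 19.7 ± 1.44 FPKM.

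The balance among the transcripts moved as well. Over the 9 genes and the 49 other complement genes listed, C3 made up 10.9% to 18.2% of summed FPKM in untreated and 25.5% to 33.6% in colitic Tmem173fl/fl libraries. In Tmem173iΔmye libraries the share was 10.2% to 16.0% without and 20.8% to 23.8% with DSS. The sum includes Cfd, which ran from 1.28 to 112 FPKM among untreated libraries, so the share also moves with Cfd. The ratio of Serping1 to C1s1 FPKM was 1.73, 1.90 and 1.53 in untreated and 2.998, 3.397 and 2.858 in colitic Tmem173fl/fl libraries, with no overlap. In colitic Tmem173iΔmye libraries it was 2.21, 1.94 and 1.79, overlapping the untreated range of that genotype (1.54 to 1.93). The ratio of C1ra to C1s1 was 0.43 to 0.55 in untreated and 0.70 to 0.83 in colitic Tmem173fl/fl libraries, and 0.43 to 0.65 in untreated and 0.51 to 0.56 in colitic Tmem173iΔmye libraries, which lay within the untreated range. These ratios do not depend on library scaling and were not tested.

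**Figure D3:**
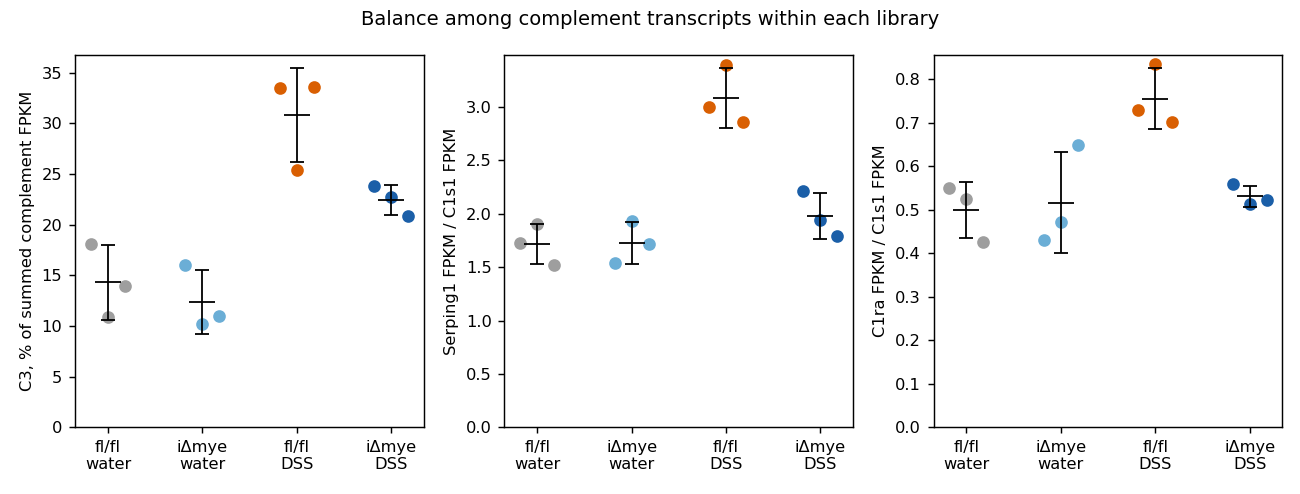
Share of C3 in the summed FPKM of complement genes, and the FPKM ratios of Serping1 to C1s1 and of C1ra to C1s1, in each library (points) with the mean and SD of 3 libraries (bars). All 3 quantities were highest in colitic Tmem173fl/fl libraries, and in colitic Tmem173iΔmye libraries C1ra to C1s1 stayed at 0.51 to 0.56.

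In Tmem173iΔmye mice the same 6 genes lay above the untreated range with DSS, but 2 were called. Of all genes, 12.1% had this order of groups and 1.48% were called higher. C3 was at 310, 247 and 305 CPM in untreated and 1364, 862 and 642 CPM in colitic Tmem173iΔmye libraries, a log2 fold change of 1.73 ± 0.28 (SE, edgeR adjusted p = 0.0147). Serping1 was at 107, 122 and 105 CPM in untreated and 294, 209 and 184 CPM in colitic libraries, a rise of 1.04 ± 0.22 (SE, edgeR adjusted p = 0.0409). For both genes replicate 1 was the highest colitic library and replicate 5 the lowest, as it was for C1ra, C1s1, C4b and C5ar1.

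C4b was at 87.3, 99.4 and 138 CPM in untreated and 361, 194 and 176 CPM in colitic Tmem173iΔmye libraries (log2 fold change 1.17 ± 0.30, SE, edgeR adjusted p = 0.0853). C1ra was at 38.2, 38.1 and 50.7 against 94.96, 71.0 and 68.7 CPM (0.88 ± 0.21, adjusted p = 0.0650), and C1s1 at 93.2, 84.7 and 82.1 against 179, 145 and 138 CPM (0.83 ± 0.19, adjusted p = 0.0540). C5ar1 was at 5.70, 7.90 and 7.63 against 28.8, 15.9 and 10.3 CPM (1.37 ± 0.37, adjusted p = 0.101). None of these passed, and their groups nonetheless did not overlap. C2 was at 4.49 to 10.04 CPM in untreated and 7.62 to 13.7 CPM in colitic libraries (0.67 ± 0.36, adjusted p = 0.426), and Cfb at 5.57 to 9.98 and 3.03 to 5.04 CPM (-0.87 ± 0.35, adjusted p = 0.265). Without replicate 5 of the colitic group 5 of the 9 genes were called, without its replicate 1 or 2 only 1, and 0 when any single untreated Tmem173iΔmye library was left out. In the libraries without Xist reads C1ra and C4b were called beside C3 (adjusted p = 0.0390 and 0.0424) and Serping1 was not (0.0543).

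Without DSS the genotypes did not separate in any of the 9 genes. Log2 fold changes of Tmem173iΔmye over Tmem173fl/fl ran from -0.26 (C2) to 0.20 (C5ar1) among the 8 genes above the floor, edgeR's adjusted p was 1 for each, and the groups overlapped in all. None of the 9 had an unadjusted p under 0.05, and DESeq2 and limma called 0 of them too. Over all genes edgeR called 0%, while 720 had an unadjusted p under 0.05.

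With DSS, the 6 genes that had risen in Tmem173fl/fl mice were each lower in all colitic Tmem173iΔmye libraries than in all colitic Tmem173fl/fl libraries. That order held for 14.8% of all genes. Serping1 and C1ra were called lower, against 1.99% of all genes. Serping1 differed by -1.33 ± 0.26 (log2, SE, edgeR adjusted p = 0.0350), from a mean of 574 ± 120 to 229 ± 57.5 CPM (SD, n = 3). C1ra differed by -1.21 ± 0.23 (SE, edgeR adjusted p = 0.0317), from 180 ± 37.7 to 78.2 ± 14.5 CPM (SD, n = 3). C3 missed the threshold narrowly, at -1.40 ± 0.31 (SE, edgeR adjusted p = 0.0509), with means of 2520 ± 340 and 956 ± 370 CPM (SD, n = 3).

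C5ar1 differed by -1.46 ± 0.35 (SE, edgeR adjusted p = 0.0614), C4b by -1.23 ± 0.32 (adjusted p = 0.0809) and C1s1 by -0.70 ± 0.20 (adjusted p = 0.0970). C2 was 0.53 ± 0.30 apart in the other direction (adjusted p = 0.365) and Cfb -0.30 ± 0.30 (adjusted p = 0.621), with overlapping groups. The calls of Serping1 and C1ra were both lost, with adjusted p up to 0.150, without replicate 1, 2 or 3 of the colitic Tmem173fl/fl group or replicate 2 or 5 of the colitic Tmem173iΔmye group, while without replicate 1 of the latter 5 genes were called. Neither was called by limma on log2(FPKM + 0.1), where 0 of the 9 genes passed, or in the 9 libraries without Xist reads, where 0 passed as well.

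**Figure D4:**
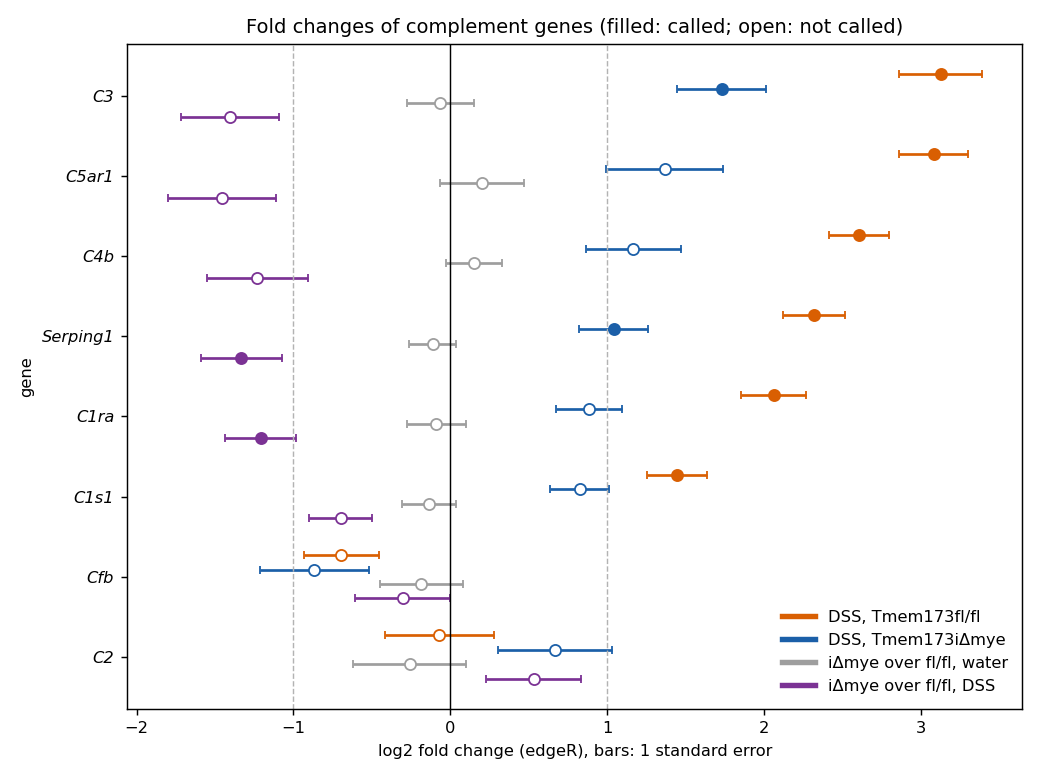
Log2 fold changes (edgeR, bars of 1 SE) of 8 complement genes with DSS in each genotype and between genotypes with and without DSS. Filled points were called, open points not, and dashed lines mark a log2 fold change of 1 in either direction. The log2 fold change of Serping1 with DSS was 2.32 in Tmem173fl/fl and 1.04 in Tmem173iΔmye mice, and it was the only one of the 9 genes for which the test of this difference passed.

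Whether the DSS response itself differed between genotypes was tested as an interaction over all 12 libraries. Serping1 was called, its rise being smaller in Tmem173iΔmye mice by a log2 difference of -1.21 ± 0.29 (SE, edgeR adjusted p = 0.0451), against 1.61% of all genes called lower. The differences were -1.65 ± 0.45 for C5ar1 (adjusted p = 0.0691), -1.37 ± 0.38 for C4b (0.0718), -1.11 ± 0.30 for C1ra (0.0660), -1.33 ± 0.40 for C3 (0.0946) and -0.55 ± 0.26 for C1s1 (0.277), and none of these passed. The comparisons share libraries, so they do not count as separate support. The call of Serping1 was lost, with adjusted p from 0.0704 to 0.106, when any of 10 of the 12 libraries was left out, and also in the 9 libraries without Xist reads (0.167).

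Markers of several cell types moved with these genes, and in whole colon fewer cells of a type and less RNA per cell cannot be told apart. The summed level of 8 fibroblast markers was 1380 to 1589 CPM in untreated and 8841 to 11090 CPM in colitic Tmem173fl/fl libraries, and 2638 to 3860 CPM in colitic Tmem173iΔmye libraries. All 8 were called higher with DSS in Tmem173fl/fl mice, and 7 of 8 were called lower in colitic Tmem173iΔmye mice. Over all genes 14.9% and 1.99% were, and the counts of the other lists are read against these shares. The 7 endothelial markers summed to 132 to 139, 566 to 789 and 202 to 423 CPM in the same groups (7 called higher, 3 lower), the 7 macrophage markers to 135 to 191, 407 to 587 and 183 to 416 CPM (3 higher, 1 lower), and the 7 neutrophil markers to 46.4 to 106, 409 to 683 and 195 to 312 CPM (7 higher, 4 lower). In untreated Tmem173iΔmye libraries the fibroblast, endothelial, macrophage and neutrophil sums were 1345 to 1694, 136 to 152, 170 to 186 and 44.7 to 81.2 CPM, with 1 neutrophil marker at 0 in all 3. The 7 epithelial markers moved the other way, from 11460 to 14400 CPM in untreated to 4176 to 7186 CPM in colitic Tmem173fl/fl and 9007 to 10830 CPM in colitic Tmem173iΔmye libraries. The sum of 7 pancreas acinar markers was 0.08, 0.61 and 3133 CPM in untreated and 8106, 4136 and 496.5 CPM in colitic Tmem173fl/fl libraries, and 0.42, 1693 and 24.9 CPM in untreated and 9959, 74.8 and 0.67 CPM in colitic Tmem173iΔmye libraries. None of the 7 was called by edgeR in any comparison or had an unadjusted p under 0.05, and the highest sum was in replicate 1 of the colitic Tmem173iΔmye group, which was also its highest library for 6 of the complement genes. The part of these marker lists in the complement changes was not tested. The 8 hepatocyte markers together stayed at 2.49 to 31.0 CPM in every library. With DSS in Tmem173fl/fl mice 3 of the 8 were called higher and 2 lower, where 7.61% of all genes were called lower. Between colitic genotypes 3 of the 8 were called lower in Tmem173iΔmye mice. Their part in the complement changes was not tested.

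Genes whose pattern over the 12 libraries was most like each member were named by the smallest root mean square difference of centred log2(CPM + 1) values, among 14558 genes with a mean of at least 1 FPKM. For Serping1 these were Tmem176a (0.12), Cd93 (0.12) and Rab34 (0.13), and for C1ra Adssl1 (0.14), Tmem176a (0.17) and A4galt (0.17). C1s1 was closest to Apba1 (0.096), Myo5a (0.12) and Reck (0.13), and C4b to Galnt18 (0.12), Man1c1 (0.15) and Reln (0.18). C3 had Kirrel (0.25) and Gja1 (0.26), and C5ar1 had Ggt5, Lamc1 and Pde4b (0.20 to 0.22). C2 had Dapp1, Fkbp1b and Ppil6 (0.27 to 0.29), and Cfb had Pyroxd2, Igfbp2 and Pias4 (0.19 to 0.20). For Cfi the rule named Tmem80, Ttll1 and BC048403 (0.10 to 0.12). With 0 to 11 counts Cfi hardly varies on this scale, so these names do not show a like pattern. Among the 9 genes the closest pair was C1ra and Serping1 (0.18), which lie on different chromosomes.

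Neighbouring genes were looked at within 100 kb, and their counts are read against the 14.9% of all genes called higher and 7.61% called lower with DSS in Tmem173fl/fl mice. C1ra and C1s1 sit in a cluster on chromosome 6 with C1rl, C1rb and C1s2. C1rb and C1s2 were below 0.1 FPKM in every untreated library and passed the filter only through colitic ones, so they are not counted here. C1rl was called higher with DSS in Tmem173fl/fl mice, at 1.91 ± 0.31 (log2, SE, edgeR adjusted p = 0.00104), as was Clstn3 beside them (1.61). Pex5 (0.51) and Gm44096, also within 100 kb of C1ra, were not called. On chromosome 17, C4b, C2 and Cfb lie close together, but of the 11 tested neighbours of C4b 3 were called higher (Tnxb at 1.40, Prrt1 at 1.73 and Cyp21a2-ps at 3.70), and Skiv2l (-0.15), Dxo (-0.12) and Stk19 (0.28) between C4b and Cfb were not called. C3, further along the chromosome, had 2 called neighbours of 7, Tnfsf14 (2.42) and Vav1 (1.16). Of the neighbours of C2 1 of 16 was called higher and of those of Cfb 1 of 12, in both cases Zbtb12, which lies within C2. Of those of C5ar1 3 of 8 were called higher, among them C5ar2, which is also in the wider list below. Of those of Cfi 0 of 6 were called, and Serping1 had 2 called higher and 2 lower of 13.

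The wider complement list held 49 further genes, of which 40 passed the filter on low values. With DSS in Tmem173fl/fl mice 22 were called higher and 3 lower, where 14.9% and 7.61% of all genes were. Of these 40, C1rb, C1s2, Csmd1 and Masp2 passed the filter only through colitic libraries. The first 3 are among the genes called higher, which such an entry favours, and without the 4 genes 19 of 36 were called higher and 3 lower. Of the classical pathway C4a was not called and 6 genes were called higher, C1rb and C1s2 with the limit just given. C1qa, C1qb and C1qc, the chains of the recognition protein C1q, rose by 1.96, 1.65 and 1.67 on the log2 scale. Of the lectin pathway 3 of 6 tested rose: Masp1 (2.58), a protease, and the recognition proteins Colec12 (2.20) and Fcna (1.87). Cfp, the gene of properdin, which stabilises the alternative enzyme, rose by 2.22, and Cfd, the protease that cleaves factor B, was not called. Cfd ran from 1.21 to 105 CPM among untreated and from 14.6 to 65.5 CPM among colitic libraries. A list of 6 adipocyte markers chosen after its values were seen ran in sum from 11.6 to 141 and from 51.9 to 125 CPM there. Among colitic libraries the highest sum (Tmem173fl/fl replicate 2) and the highest Cfd (Tmem173iΔmye replicate 1) lay apart. With DSS in Tmem173fl/fl mice 2 of the 6 markers were called higher and 1 lower. A link of Cfd to these markers was not tested.

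Of the terminal pathway, whose products form the membrane pore, C7 (4.97) and C6 (2.28) rose and Hc, the gene of C5, and C8g were not called. C7 had 4 to 14 counts in untreated Tmem173fl/fl libraries, and its log2 fold change was 2.68 to 5.11 in other settings. C8a, C8b and C9 did not pass the filter. Among soluble regulators Vtn (2.93) and Clu (1.68) rose while C4bp (-2.93), which binds C4 fragments, and Cpn1 (-2.63), a subunit of the carboxypeptidase that inactivates the small peptides, fell. Of the membrane regulators Cd59a (2.12) rose, and Csmd1, which was called higher, had 10 to 18 counts in untreated and 46 to 152 counts in colitic Tmem173fl/fl libraries. Of the receptors Itgam (2.89), Cd93 (2.44), C5ar2 (1.92) and C3ar1 (1.02) rose and Cr2 (-1.45) fell. Vsig4 was also called higher, from 3 to 8 counts in untreated to 22 to 39 in colitic Tmem173fl/fl libraries. No fold is given for Vsig4 so near the floor. The calls of Vsig4 and C5ar2 were each kept in 9 of 10 other settings. The call of Cr2 was lost without replicate 1 or 3 of the untreated or replicate 1 of the colitic Tmem173fl/fl group (adjusted p up to 0.0954), and that of C3ar1 without replicate 1 of either, where its log2 fold change was down to 0.92. In Tmem173iΔmye mice 6 of the 40 were called, all higher (1.48% of all genes were called higher), among them Cpn2 (2.96), Itgam (1.52), Colec12 (1.45), Cd55 (1.39) and C3ar1 (1.27). Each of these 5 named calls was lost without any single untreated Tmem173iΔmye library, those of Itgam and Cpn2 also without replicate 2 and that of Itgam without replicate 1 of the colitic group (adjusted p up to 0.201 for Cd55), and those of Cd55 (0.0509) and C3ar1 (0.0561) in the libraries without Xist reads.

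**Figure D5:**
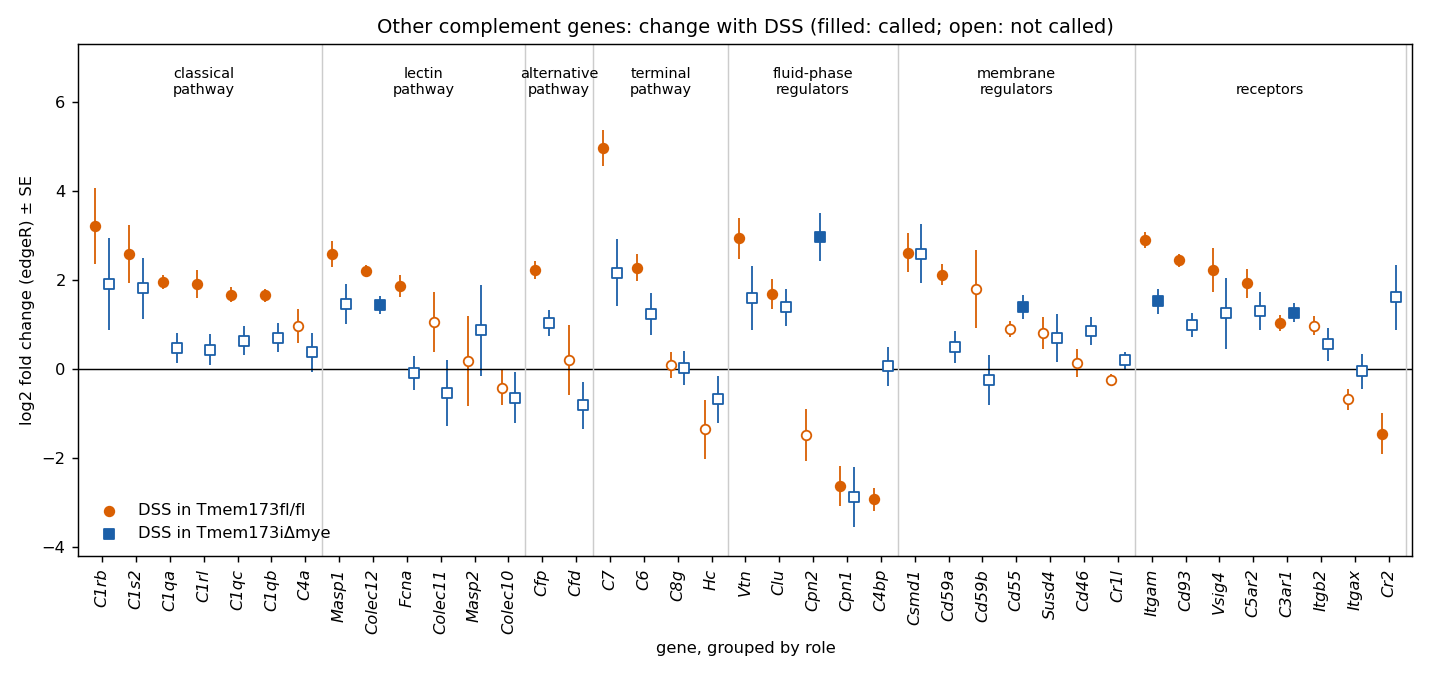
Log2 fold change with DSS (edgeR, bars of 1 SE) of other complement genes in Tmem173fl/fl (circles) and Tmem173iΔmye mice (squares), grouped by role. Filled symbols were called, open ones not. C7, with 4 to 14 counts in untreated Tmem173fl/fl libraries, rose most in that genotype, and C4bp fell there by 2.93.

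Between colitic genotypes 4 of these 40 genes were called lower in Tmem173iΔmye mice (1.99% of all genes were), namely Fcna (-1.54), C1rl (-1.36), Cd93 (-1.33) and Itgam (-1.03), and 2 higher, C4bp (2.97) and Cpn2 (4.42), where 0.822% of all genes were called higher. With a library left out, the call of C4bp in this comparison was kept in 2 of 6 fits (adjusted p up to 0.105, lost without any of the colitic Tmem173fl/fl libraries or replicate 2 of the colitic Tmem173iΔmye group) and that of Cpn2 in 5 of 6 (lost, at an adjusted p of 0.0647, with colitic Tmem173fl/fl replicate 1 left out). Fcna, C1rl, Cd93 and Itgam each kept theirs in 1 of 6, without replicate 1 of the colitic Tmem173iΔmye group, and none of these 4 was called in the libraries without Xist reads (adjusted p = 0.0598 to 0.0687). C4bp was at 13.4, 9.07 and 10.96 CPM in untreated and 1.46, 1.28 and 1.43 CPM in colitic Tmem173fl/fl libraries. In Tmem173iΔmye libraries it was at 12.7, 9.997 and 8.83 CPM without and 7.34, 5.85 and 19.7 CPM with DSS. Replicates 1 and 2 of this colitic group lay below every untreated library of the genotype and replicate 5, which has Xist reads, lay above them, so the overlap of the groups rests on that library. The interaction of C4bp was 3.06 ± 0.55 (log2, SE, edgeR adjusted p = 0.0128), where 0.934% of all genes were called higher. It stayed between 2.31 and 3.36 with a library left out (adjusted p = 0.00411 to 0.0384). Its call was kept in 7 of 9 other settings, and limma on log2(FPKM + 1) did not call it (1.07, adjusted p = 0.104). The call of C4bp between colitic genotypes was kept in 8 of 10 other settings. Cpn2, the other subunit of the carboxypeptidase, had 4 to 8 counts in colitic Tmem173fl/fl and 71 to 154 counts in colitic Tmem173iΔmye libraries, and its interaction was 4.52 ± 0.79 (SE, edgeR adjusted p = 0.0111). Cd93, Itgam and Fcna were called lower in the interaction, at -1.39, -1.31 and -1.89. In the interaction these calls were kept in 2 or 3 of 12 fits with a library left out and in none of the 3 genes without the Xist libraries (adjusted p = 0.0585 to 0.144), while those of C4bp and Cpn2 were kept in all 12.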

How the data were processed

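The authors deposited 1 table with whole-number counts and FPKM per gene for each of 12 libraries of polyadenylated colon RNA. Per the submitters' processing notes the tools were CASAVA 1.8, fastp, HISAT2 2.0.5, featureCounts 1.5.0-p3 and DESeq2 1.20.0, with GRCm38 as the build. Counting options (strand, shared exons, multiple matches) were not given in the sources used here. The deposited FPKM equal count over gene length and library total, times 1 constant per library. The deposited group means, log2 fold changes and p-values of the authors' own comparisons were not used. Depth differed little (13823237 to 18718915 counts), and standard errors rest on 3 libraries a group. The labels do not say whether replicates were separate mice. In 3 of the 4 groups Xist reads set 1 library apart, so those groups hold more than 1 animal. The p-values measure the spread between these libraries.

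Genes with FPKM of at least 0.1 in at least 3 of the 12 libraries (24102) were tested on the counts with edgeR 4.0.16 (glmQLFit, glmQLFTest, TMM, Benjamini-Hochberg over all genes tested) in R 4.3.3. Each pairwise fit held 2 groups, and all 4 entered the interaction. The SE is the log2 fold change over the square root of F. DESeq2 1.42.0, limma 3.58.1 on log2(FPKM + 0.1) and log2(FPKM + 1), other scalings, filters and thresholds, leaving out single libraries and a replicate block were alternatives. A fit to libraries without Xist reads and the adipocyte list were added after the data were seen. Fits were tested on simulated data.

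The 9 genes and the lists were chosen with earlier results of these data known. Named genes were all members, called genes of the wider list (at most 5 a role, plus C4a, C1s2, C1rb and C5ar2), the 3 genes most like each member, Tmem173 and Lyz2, and 2 genes that this rule names are not reported here. Lyz2 was at 150 to 277 and 76.4 to 115 CPM in untreated Tmem173fl/fl and Tmem173iΔmye libraries and at 336 to 505 and 231 to 357 CPM in the colitic ones. Upstream sequences are from RefSeq on GRCm38.p6, 250 bases before each start, and matched 4 members. Smooth muscle markers ran in sum from 2331 to 3924 CPM and colon epithelium identity markers from 6959 to 20620 CPM, with none at 0 in all libraries of a group.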

Additional observations from a re-analysis of the deposited data

Results flagged for a closer look

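Serping1 is listed here because the effect of DSS on it differed between genotypes in a direct test of that difference. Its interaction log2 fold change was -1.21 (SE 0.29, edgeR adjusted p = 0.0451). The DSS rise was 2.32 in Tmem173fl/fl and 1.04 in Tmem173iΔmye mice, and all 3 colitic Tmem173iΔmye libraries (184 to 294 CPM) lay below all 3 colitic Tmem173fl/fl libraries (446 to 684 CPM). Across the other settings the adjusted p ran from 0.00281 to 0.167. The summed fibroblast, endothelial and neutrophil markers differed between the same groups in the same direction, and their part in the difference was not tested.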

How the results depend on the processing

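The 6 calls for DSS in Tmem173fl/fl mice were kept in every setting (count 6 throughout, 7 with adjusted p alone, which adds Cfb). None of the 9 genes was called between genotypes without DSS in any setting. The counts of the other comparisons depend on the setting. For DSS in Tmem173iΔmye mice 2 genes were called, against 4 with no filter, with DESeq2, in 1 fit of all 12 libraries or with an unadjusted p of at most 0.05, 0 with limma at either pseudocount, 5 with a replicate block, and 0 to 5 with a library left out. Between colitic genotypes 2 were called, against 4 with library totals only or a replicate block, 5 with no filter, DESeq2, the joint fit or the unadjusted p, 0 with limma at either pseudocount or in libraries without Xist reads, and 0 to 5 with a library left out. For the interaction 1 was called, against 4 with library totals, 5 with no filter, DESeq2 or the unadjusted p, 0 with limma at a pseudocount of 0.1 or without Xist libraries, and 0 to 5 with a library left out. The causes were not tested. Replicate numbers did not pair the libraries: same-numbered ones correlated from -0.19 to 0.24 in 15 pairs, and 3 of 18 comparisons were best with their own number.

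Signs changed only where the value was near 0. C2 with DSS in Tmem173fl/fl mice was 0.078 with library totals, 0.0039 with the block and -0.33 to 0.40 with a library left out. Without DSS, C1s1 was 0.0097 and C4b -0.059 in libraries without Xist reads, and with a library left out C1ra ran from -0.24 to 0.077, C2 from -0.64 to 0.22, C3 from -0.30 to 0.18, Cfb from -0.39 to 0.015 and C4b from -0.066 to 0.29. The Cfb interaction was 0.21 with the block, 0.30 without Xist libraries and -0.30 to 0.11 with a library left out. Cfi, with at most 11 counts, was not refitted. Depth limits Cfi, Cfb (50 to 166 counts) and C2 (74 to 225 counts).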
